A study of Mus musculus with 8 samples.

Results

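The 10 genes described here encode the enzymes that make serine, those that carry 1-carbon units on folate between serine and glycine, and those that make proline. They are Phgdh, Psat1 and Psph of serine synthesis, Shmt1, Shmt2, Mthfd2, Mthfd1l and Aldh1l2 of folate metabolism, and Aldh18a1 and Pycr1 of proline synthesis. The members were selected on the read counts of Aldh1l2 and Pycr1, which were strongly lower in transgenic libraries of this series, so the differences of these 2 genes are given as a description with no test. All 10 were in the count table of 48526 genes, and all 10 were among the 15580 genes with enough reads to be tested.

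The RNA was that of neuro-intermediate lobes of mouse pituitaries. This lobe holds the melanotropes, the cells labelled as sampled here, together with the glial pituicytes of the posterior lobe. Melanotropes make the hormone precursor POMC. There were 4 groups with 2 libraries each, in strain C57B6, and each library was a pool of 5 lobes from male mice that the study's methods give as 3 months old. WT mice carried no transgene. ACreb3l2 mice carried a dominant-negative form of Creb3l2, AXBP1 mice carried one of XBP1, and ACreb3l2/AXBP1 mice carried both. Creb3l2 and XBP1 are transcription factors of the basic leucine zipper class. In the transgene products an acidic stretch takes the place of the DNA-binding part, so that a factor paired with one is kept off DNA. A fragment of the rat POMC promoter, which the study describes from earlier work as specific to melanotropes, drives both transgenes. They are thus meant to act in POMC cells and not in the pituicytes, vessels or connective tissue of the same lobe. Their expression by cell type was not tested here. Of 2 transgenic lines selected per construct, which the study describes as alike, results are given for 1.

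Serine is made from the glycolytic intermediate 3-phosphoglycerate in 3 steps. Serine hydroxymethyltransferase then splits serine into glycine and a 1-carbon unit on tetrahydrofolate, with SHMT2 working in mitochondria and SHMT1 in the cytosol. In mitochondria MTHFD2 oxidizes the folate-bound unit, MTHFD1L releases it as formate and ALDH1L2 oxidizes it to carbon dioxide while making NADPH. Proline is made from glutamate by P5C synthase, the product of Aldh18a1, and then by P5C reductase, here PYCR1. Genes of all 3 routes are known in many cell types as targets of ATF4, a transcription factor of the amino acid and endoplasmic reticulum stress responses.

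The promoters of 4 members are shown, those of Pycr1, Mthfd2 and Aldh18a1 because their differences from WT were the largest after that of Aldh1l2 in both groups with ACreb3l2, and that of Mthfd1l because it held the most matches to the motifs searched. Each runs 5′ to 3′ on the gene's own strand in build GRCm38 (mm10), as far as 250 bases before the RefSeq start and cut where an annotated exon begins. Capitals mark the motifs found, which were searched on both strands. The Mthfd2 window lies inside the GENCODE span of that gene, which begins upstream of the RefSeq start used.
Pycr1, chr11:120643770-120643998, minus strand: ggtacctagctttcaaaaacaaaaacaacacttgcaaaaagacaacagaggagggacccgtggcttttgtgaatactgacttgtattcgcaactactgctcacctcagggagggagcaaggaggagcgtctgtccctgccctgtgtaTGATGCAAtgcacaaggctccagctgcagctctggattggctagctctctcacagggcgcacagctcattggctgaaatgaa
Aldh18a1, chr19:40588464-40588713, minus strand: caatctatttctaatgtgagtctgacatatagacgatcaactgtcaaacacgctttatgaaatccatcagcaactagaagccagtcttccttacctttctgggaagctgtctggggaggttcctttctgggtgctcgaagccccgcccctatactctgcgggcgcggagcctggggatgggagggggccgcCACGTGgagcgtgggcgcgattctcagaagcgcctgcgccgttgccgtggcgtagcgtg
Mthfd2, chr6:83317607-83317854, minus strand: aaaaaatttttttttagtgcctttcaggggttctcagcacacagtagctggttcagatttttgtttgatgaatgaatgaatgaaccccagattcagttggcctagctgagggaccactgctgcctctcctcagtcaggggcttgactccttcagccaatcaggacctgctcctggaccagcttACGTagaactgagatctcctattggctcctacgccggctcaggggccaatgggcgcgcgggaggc
Mthfd1l, chr10:3972825-3973074, plus strand: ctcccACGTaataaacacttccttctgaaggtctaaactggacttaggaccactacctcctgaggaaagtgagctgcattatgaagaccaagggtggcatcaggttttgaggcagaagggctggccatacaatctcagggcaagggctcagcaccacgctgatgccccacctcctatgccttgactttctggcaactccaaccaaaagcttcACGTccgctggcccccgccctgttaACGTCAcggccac
The motifs were chosen with the promoters in view. They were TGATGNAA, the C/EBP-ATF response element of amino acid starvation, and a group of motifs built on the core ACGT that basic leucine zipper or E-box factors recognise. The longer ones searched were TGACGT, the palindrome CACGTG, and TGACGTGG. Promoters of 9 of the 10 members, all but Aldh1l2, were in the RefSeq table. Of these 9, the Pycr1 promoter was the one with TGATGNAA, as TGATGCAA starting 103 bases before the start site. Of 27025 genes with promoter windows of the same length, 3.91% held it in a window. ACGT stood in 4 of the 9, those of Psph, Mthfd2, Mthfd1l and Aldh18a1, against 29.6% of these genes. TGACGT was found in the Mthfd1l promoter, on the opposite strand, and in 7.29% of these genes. CACGTG was found in the Aldh18a1 promoter and in 6.86% of these genes. TGACGTGG was in none of the 9 promoters and in 0.603% of these genes. These are matches of letters and say nothing of binding.

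Library totals ran from 28256086 to 37988912 counts. The 2 libraries of a group correlated at r = 0.989 to 0.994 across genes on the log2 scale, and none were alike within sampling noise. Counts below are normalized counts, that is, counts divided by the library total after TMM scaling (edgeR's method) and multiplied by the mean total. A test is edgeR's quasi-likelihood test with Benjamini-Hochberg adjustment over all 15580 genes, called at an adjusted p under 0.05. The error after a mean is the SD (n = 2 pools) and that after a log2 change is its standard error. Nothing states that the pools were raised or dissected apart, so the p-values measure the spread between these pools. Melanotrope markers, 7 genes with Pomc among them, summed to between 112601 and 167647 CPM (counts scaled to a common library total) in WT, and no marker gene on any list was at 0. In ACreb3l2/AXBP1 that sum was 66919 to 90797 CPM, and all 7 markers had a lower mean than in WT. The sum was 111323 to 124287 CPM in ACreb3l2, again with a lower mean of all 7, and 103247 to 121148 in AXBP1, with a lower mean of 5. Pituicyte markers summed to 606 to 711 CPM in WT, to 716 to 821 for ACreb3l2, to 710 to 776 for AXBP1 and to 717 to 831 for ACreb3l2/AXBP1. Endothelial markers summed to 132 to 164 CPM in WT and to 189 to 224 in ACreb3l2/AXBP1. Of these, 6 of 6 genes were higher in both libraries, as were 29.6% of all genes tested, and none was called. AXBP1 had 175 to 223 CPM of these markers. Anterior lobe markers summed to 4604 to 6999 CPM in WT and to 2359 to 2409 in AXBP1, and fibroblast and pericyte markers to 746 to 963 in WT, 972 to 1115 in AXBP1 and 964 to 1125 in ACreb3l2/AXBP1. The part of these shifts in the results below was not tested, and in bulk tissue fewer cells of a type and less RNA per cell cannot be told apart. By RT-qPCR the study found more transgene mRNA than endogenous mRNA of each factor in lobes of the lines it selected. Both transgenes hold coding sequence of their factor from the leucine zipper on, so transgene mRNA could add reads to Creb3l2 or Xbp1. In these counts neither gene had a higher count that passed the test in the groups labelled with its transgene. A gain from the transgenes therefore did not pass the test, and every group below is named by its label alone. Creb3l2 was at 28642 and 28156 normalized counts for WT and at 27174 and 26738 for the libraries labelled ACreb3l2, and Xbp1 was at 11860 and 13417 for WT and at 12431 and 13831 for those labelled AXBP1. Creb3l2 differed from WT by a log2 change of -0.08 in ACreb3l2 (adjusted p = 0.874), and Xbp1 by 0.06 in AXBP1 (adjusted p = 0.900). Creb3l2 was lower in ACreb3l2/AXBP1 (-0.69, adjusted p = 0.0428), and Xbp1 differed by -0.46 in ACreb3l2 (adjusted p = 0.127).

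Per length of gene, in the deposited FPKM (fragments per kilobase of gene, scaled to library size), the WT level of the members spanned a wide range. Aldh18a1 was highest with a mean of 61.1 FPKM, followed by Mthfd2 with 33.7, Psat1 with 29.7, Phgdh with 16.6, Shmt2 with 14.7, Psph with 14.0, Pycr1 with 12.1, Mthfd1l with 5.72, Aldh1l2 with 3.46 and Shmt1 with 0.882. The WT ranges of Mthfd2 and Psat1 overlapped, as did those of the neighbours in the run from Phgdh through Shmt2 and Psph to Pycr1. The other neighbours in this order did not overlap.

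All 3 serine synthesis genes had a lower mean in every transgenic group than in WT, and Psat1 and Psph passed the test in at least 1 group. PHGDH catalyses the first and committed step. Phgdh (chr3:98313170-98339990) was at 857 and 1347 normalized counts for WT, 778 and 844 for ACreb3l2, 883 and 803 for AXBP1, and 775 and 694 for ACreb3l2/AXBP1. The WT libraries lay far apart, and the lower WT library was below the higher AXBP1 one. The log2 change from WT was -0.44 ± 0.187 in ACreb3l2 (adjusted p = 0.281), -0.38 ± 0.187 in AXBP1 (adjusted p = 0.528) and -0.58 ± 0.187 in ACreb3l2/AXBP1 (adjusted p = 0.0804), none of which passed edgeR's test, while DESeq2 called the last (adjusted p = 0.0162). Without WT replicate 1 the ACreb3l2 and ACreb3l2/AXBP1 differences of Phgdh were called (adjusted p = 0.0123 and 0.00440), and without WT replicate 2 the log2 changes of Phgdh were -0.08, -0.02 and -0.23 in the order above.

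PSAT1, the aminotransferase of the second step, takes its amino group from glutamate. Psat1 (chr19:15904678-15947337) stood at 2770 and 2616 normalized counts for WT, 1621 and 1624 for ACreb3l2, 2184 and 1671 for AXBP1, and 1691 and 1633 for ACreb3l2/AXBP1. Both WT libraries were above all 6 transgenic ones, and AXBP1 replicate 1 lay between. Psat1 fell in ACreb3l2 to 60.3% of WT (log2 change -0.73 ± 0.115, adjusted p = 0.00886) and in ACreb3l2/AXBP1 to 61.7% (-0.70 ± 0.115, adjusted p = 0.00761). The AXBP1 difference was -0.48 ± 0.115 (adjusted p = 0.474), and -0.30 without AXBP1 replicate 2.

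PSPH is the phosphatase that releases serine. Psph (chr5:129765558-129787449) had 818 and 745 normalized counts for WT, 577 and 524 for ACreb3l2, 549 and 455 for AXBP1, and 491 and 521 for ACreb3l2/AXBP1. No transgenic library reached the WT level, and the AXBP1 libraries overlapped both other transgenic groups. Psph fell in ACreb3l2/AXBP1 to 64.8% of WT (log2 change -0.63 ± 0.120, adjusted p = 0.0139). The differences in ACreb3l2 (-0.50 ± 0.120, adjusted p = 0.0558) and AXBP1 (-0.64 ± 0.121, adjusted p = 0.309) did not pass edgeR's test, while DESeq2 called both. In the annotation 10.4% of the exonic bases of Psph lie opposite exons of Cct6a, and since the strand setting of the counting is not stated, reads of these bases may belong to either gene.

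Of the mitochondrial folate enzymes tested, Shmt2, Mthfd2 and Mthfd1l fell in both groups with ACreb3l2 by edgeR, which called none in AXBP1, where DESeq2 called Shmt2 and Mthfd2. Neither tool called the cytosolic Shmt1 in any group. Shmt2 (chr10:127517123-127522444) was measured at 1256 and 1348 normalized counts for WT, 793 and 788 for ACreb3l2, 849 and 769 for AXBP1, and 756 and 693 for ACreb3l2/AXBP1. The transgenic libraries lay close together and all were well below WT. Shmt2 fell to 60.7% of WT in ACreb3l2 (log2 change -0.72 ± 0.0985, adjusted p = 0.00449) and to 55.7% in ACreb3l2/AXBP1 (-0.85 ± 0.0987, adjusted p = 0.00198), and the AXBP1 difference was of like size (-0.69 ± 0.0986) at an adjusted p of 0.119. Shmt1 (chr11:60788104-60811718), with few reads, had 66.0 and 77.3 normalized counts for WT, 80.7 and 104 for ACreb3l2, 82.9 and 84.2 for AXBP1, and 101 and 101 for ACreb3l2/AXBP1. Every transgenic library was above both WT libraries, but no difference passed the test. The log2 change of Shmt1 was 0.36 ± 0.216 in ACreb3l2 (adjusted p = 0.444), 0.22 ± 0.219 in AXBP1 (adjusted p = 0.716) and 0.50 ± 0.215 in ACreb3l2/AXBP1 (adjusted p = 0.156), and with 1 library left out it came down to 0.18 in ACreb3l2 and 0.11 in AXBP1.

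Mthfd2 (chr6:83305691-83325908) encodes the mitochondrial dehydrogenase and cyclohydrolase. It was counted at 1989 and 3190 for WT, 967 and 843 for ACreb3l2, 1541 and 1087 for AXBP1, and 837 and 761 for ACreb3l2/AXBP1, in normalized counts. The WT libraries differed widely, with no transgenic library reaching the lower of them. Mthfd2 fell to 35.0% of WT in ACreb3l2 (log2 change -1.51 ± 0.249, adjusted p = 0.0248) and to 30.9% in ACreb3l2/AXBP1 (-1.70 ± 0.250, adjusted p = 0.0108). In AXBP1 its log2 change was -0.98 ± 0.244 (adjusted p = 0.474), and -0.60 without WT replicate 2. Mthfd1l (chr10:3973118-4167081), whose product makes formate for export to the cytosol, had 839 and 759 normalized counts for WT, 573 and 486 for ACreb3l2, 687 and 672 for AXBP1, and 515 and 403 for ACreb3l2/AXBP1. The AXBP1 libraries lay between WT and the groups with ACreb3l2. Mthfd1l fell in ACreb3l2/AXBP1 (log2 change -0.80 ± 0.136, adjusted p = 0.00879) and, just inside the threshold, in ACreb3l2 (-0.59 ± 0.135, adjusted p = 0.0482), and its AXBP1 difference was -0.23 ± 0.134 (adjusted p = 0.561).

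ALDH1L2 is the mitochondrial 10-formyltetrahydrofolate dehydrogenase. Aldh1l2 (chr10:83487450-83534140), one of the genes that chose the set, had 741 and 685 normalized counts for WT, 106 and 76.4 for ACreb3l2, 311 and 229 for AXBP1, and 93.8 and 88.6 for ACreb3l2/AXBP1. WT, AXBP1 and the groups with ACreb3l2 formed 3 separate levels. The mean was 7.72-fold lower than WT with ACreb3l2 (log2 change -2.95 ± 0.197), 2.63-fold lower with AXBP1 (-1.40 ± 0.179) and 7.81-fold lower with both (-2.97 ± 0.196). With limma on log2(FPKM + 1) these log2 changes were -1.64, -1.04 and -1.57, and that of ACreb3l2 against AXBP1 was -0.60. Adding AXBP1 to ACreb3l2 left Aldh1l2 at much the same level, with a log2 difference of -0.02 ± 0.211 between those groups. Exons of D10Wsu102e on the other strand cover 14.1% of the exonic bases of Aldh1l2.

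In both proline synthesis genes the 4 libraries with ACreb3l2 lay below those of WT and AXBP1, and Aldh18a1, the one tested, fell in both groups with ACreb3l2 against WT. Against AXBP1 it was called in both by DESeq2 and in neither by edgeR. Aldh18a1 (chr19:40550257-40588463), whose product makes the proline precursor from glutamate, had 6627 and 9562 normalized counts for WT, 3345 and 3090 for ACreb3l2, 5932 and 5737 for AXBP1, and 3194 and 2305 for ACreb3l2/AXBP1. The AXBP1 libraries were just below the lower WT library and above all 4 libraries with ACreb3l2. Aldh18a1 fell to 39.8% of WT in ACreb3l2 (log2 change -1.33 ± 0.198, adjusted p = 0.0148) and to 34.0% in ACreb3l2/AXBP1 (-1.56 ± 0.199, adjusted p = 0.00549). In AXBP1 it was at 72.1% of WT (-0.47 ± 0.195, adjusted p = 0.495). PYCR1 carries out the last step of proline synthesis in mitochondria. Pycr1 (chr11:120635712-120643769), the other gene that chose the set, had 595 and 1011 normalized counts for WT, 107 and 125 for ACreb3l2, 611 and 548 for AXBP1, and 176 and 105 for ACreb3l2/AXBP1. The AXBP1 libraries stood at or near the lower WT library, while the 4 libraries with ACreb3l2 lay far below both. Pycr1 was at 14.5% of WT with ACreb3l2 (log2 change -2.79 ± 0.314), 72.3% with AXBP1 (-0.47 ± 0.277) and 17.5% with both (-2.52 ± 0.306). Without WT replicate 2 the AXBP1 differences of Pycr1 and Aldh18a1 from WT were -0.04 and -0.18.

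**Figure D1:**
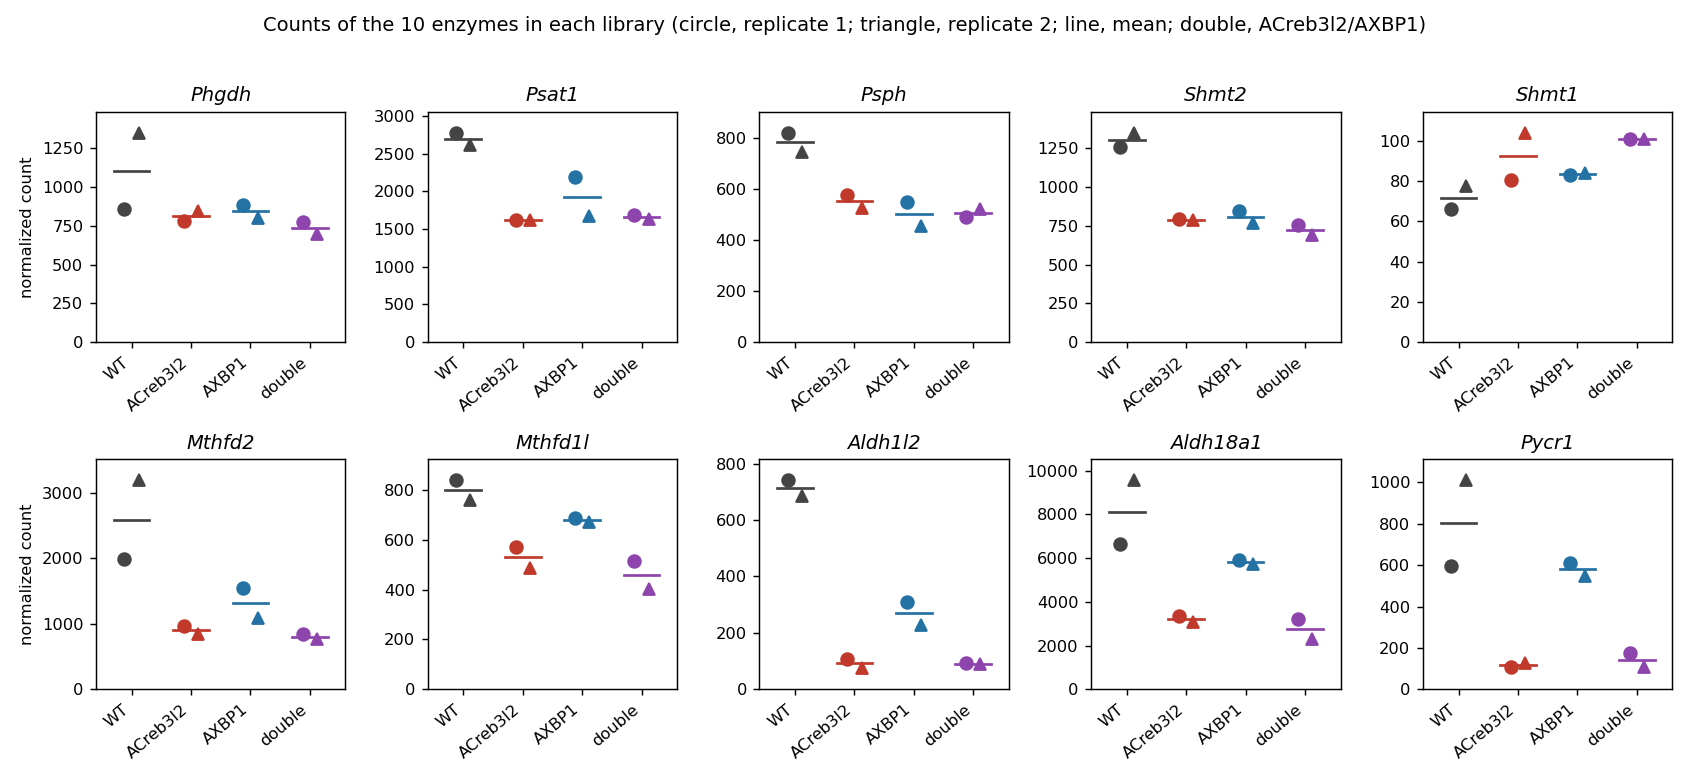
Normalized counts (linear axis from 0) of the 10 genes in each of the 8 libraries, 1 panel per gene, with a circle for replicate 1, a triangle for replicate 2, a line at the mean of a group, and double standing for ACreb3l2/AXBP1. Aldh1l2 falls into 3 levels, with AXBP1 between WT and the groups with ACreb3l2, while Pycr1 and Aldh18a1 are low in the 4 libraries with ACreb3l2 and Shmt1 is lowest in WT.

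Against WT, 9 of the 10 members had a lower mean in ACreb3l2, the exception being Shmt1, and in all 9 both ACreb3l2 libraries lay below both WT libraries, as in 23.2% of all genes tested. Among the 8 members that did not choose the set, 5 fell in ACreb3l2, namely Psat1, Shmt2, Mthfd2, Mthfd1l and Aldh18a1, where 3.04% of all genes tested were called. The set came from this contrast, so the share is given for scale only and nothing is read from it. The median log2 change was -0.73 over the 10 members and 0.01 over all genes. Of these 5 calls only that of Shmt2 was left without ACreb3l2 replicate 1, and likewise without ACreb3l2 replicate 2, where the calls over all genes went from 473 to 195 and 153, and 3 calls (Aldh18a1, Mthfd2 and Shmt2) were made by limma on log2(FPKM + 0.1), which called 1.05% of all genes. DESeq2 called 6 of the 8, with Psph added, and 4.82% of all genes. The pituicyte sum was higher in both ACreb3l2 libraries than in WT and all 7 melanotrope markers had a lower mean, as given above.

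In AXBP1, 9 of the 10 members had a lower mean than in WT, with both libraries lower in 7, against 23.8% of all genes tested, and the median log2 change was -0.48 against 0.00 over all genes. No member was called by edgeR, and no gene at all, so the share called was 0%. Of the 8 members tested, 5 had an unadjusted p under 0.05, DESeq2 called 3 (Mthfd2, Psph and Shmt2) where it called 0.469% of all genes, and limma called Shmt2 alone where it called 0.0741%. Unadjusted p-values under 0.05 were found for 1554 of all genes tested. The sum of anterior lobe markers was lower, and those of endothelial and of fibroblast and pericyte markers higher, in both AXBP1 libraries than in WT, as given above.

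In ACreb3l2/AXBP1, 9 of the 10 members had both libraries below both WT ones, as had 28.7% of all genes tested. Of the 8 members tested, 6 fell, those called in ACreb3l2 and Psph, where 10.1% of all genes were called. As before, the set was drawn from this contrast and nothing is read from the share. The median log2 change was -0.82 over the 10 members and 0.01 over all genes. Without ACreb3l2/AXBP1 replicate 2 the calls of Aldh18a1 and Shmt2 alone were left, with 218 of all genes called against 1566, while leaving out any other library gave 6 or 7. DESeq2 called 7 of the 8, all but Shmt1, and 13.1% of all genes, and limma called the same 6 as edgeR and 4.18%. Melanotrope markers were lower and endothelial and pituicyte markers higher in this group, as given above.

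**Figure D2:**
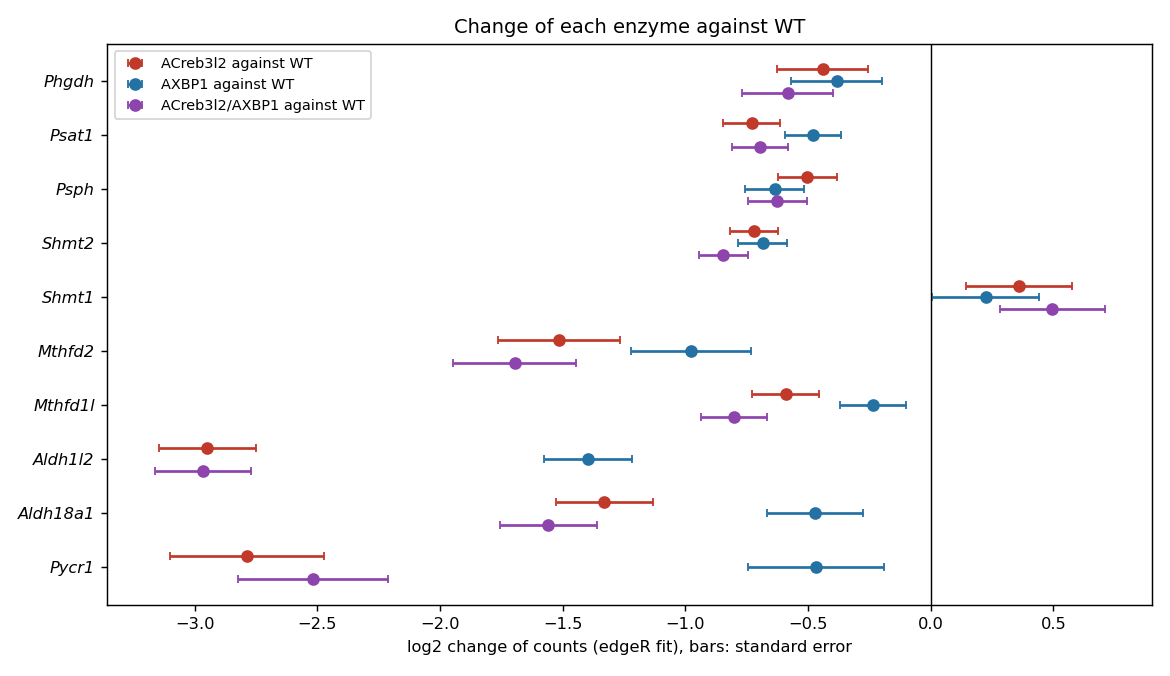
Log2 change from WT of each of the 10 members in ACreb3l2, AXBP1 and ACreb3l2/AXBP1, with bars of 1 standard error from the edgeR fit on 2 libraries per group. Aldh1l2 reaches -2.95 and -2.97 with ACreb3l2 and -1.40 with AXBP1 alone, Pycr1 -2.79, -2.52 and -0.47, and Shmt1 is the one member above 0.

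Among all 15580 genes ordered by log2 change from the most negative, Aldh1l2 stood at place 6 for ACreb3l2, 40 for AXBP1 and 7 for ACreb3l2/AXBP1. Pycr1 held places 9, 570 and 17 in the same order of groups. These places describe the choice of the set. Mthfd2 followed at 53, 97 and 63, and Aldh18a1 at 74, 556 and 81. Shmt2 was at place 366 for ACreb3l2, 240 for AXBP1 and 428 for ACreb3l2/AXBP1, and Psat1 at 352, 534 and 686. Shmt1 lay on the other side of the order, at places 14358, 13285 and 14481.

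**Figure D3:**
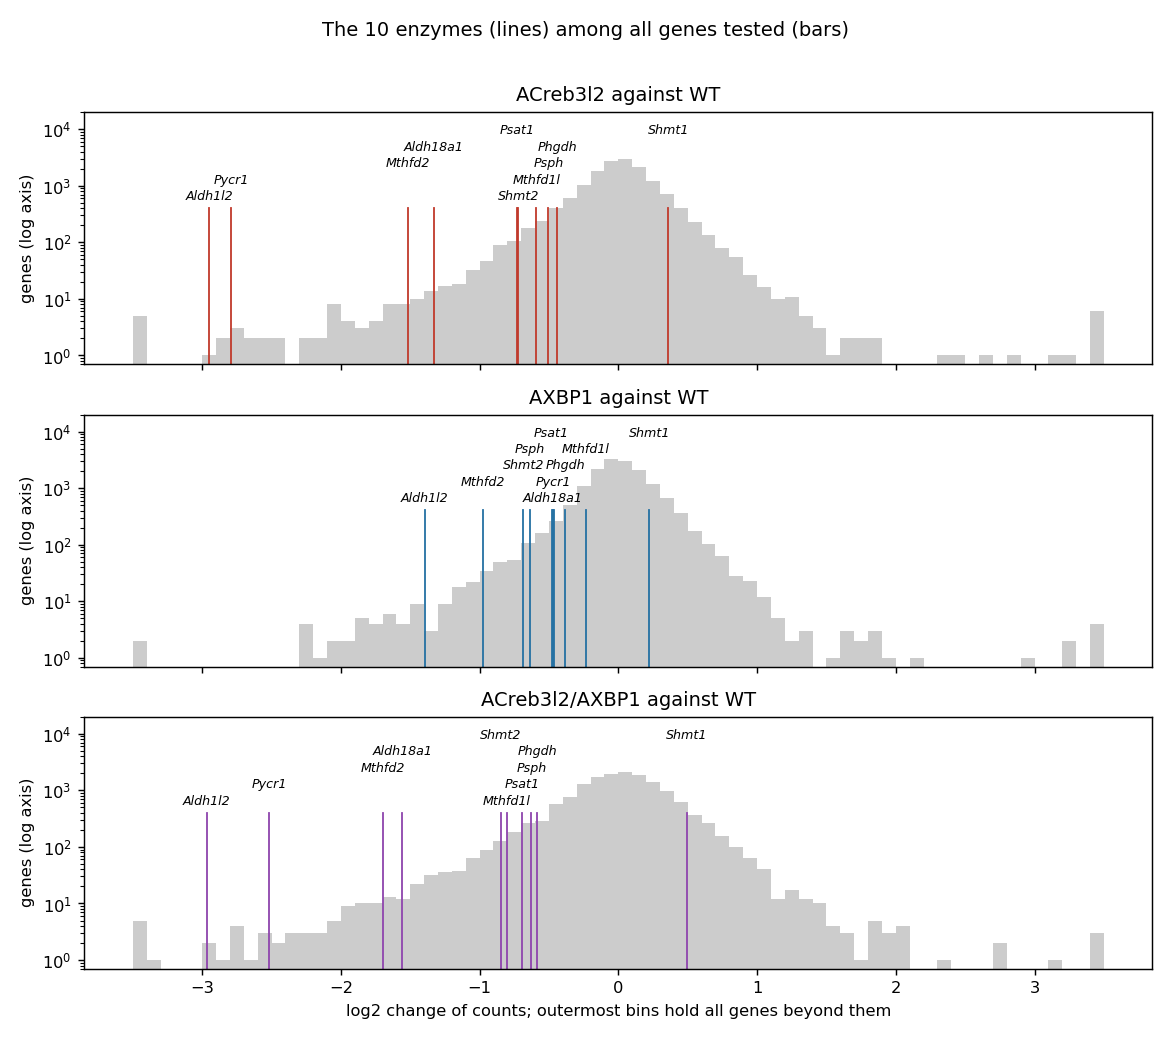
Distribution of the log2 change from WT over all 15580 genes tested in each transgenic group (bars, number of genes per bin on a log axis, with the outermost bins holding all genes beyond them), with the 10 members marked by lines. Aldh1l2 and Pycr1 lie at the far left in both groups with ACreb3l2, and Pycr1 moves towards the centre in AXBP1.

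The transgenic groups were then compared with each other. Pycr1 was lower in ACreb3l2 than in AXBP1 by a log2 difference of -2.32 ± 0.314, and Aldh1l2, at 34.1% of its AXBP1 mean, by -1.55 ± 0.198. None of the 8 members tested passed edgeR's test between ACreb3l2 and AXBP1, where 0.719% of all genes were called. Of these 8, 2 had an unadjusted p under 0.05, as had 1478 of all genes, and DESeq2, with 1.66% of all genes called, called Aldh18a1, which was lower in ACreb3l2 by a log2 difference of -0.86 ± 0.197 (edgeR adjusted p = 0.147). Limma called none of the 8 and 0.127% of all genes. Shmt2 differed by -0.03 (adjusted p = 0.965) and Psph by 0.13 (adjusted p = 0.847) between the same groups.

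Against AXBP1, the ACreb3l2/AXBP1 group had Pycr1 at 24.2% (log2 difference -2.05 ± 0.306) and Aldh1l2 at 33.7% (-1.57 ± 0.198). None of the 8 members tested was called by edgeR, where 0.623% of all genes were, though 3 had an unadjusted p under 0.05, as had 1736 of all genes. DESeq2 called 3 of the 8, namely Aldh18a1, Mthfd2 and Mthfd1l, against 1.82% of all genes, and limma none against 0.148%. The edgeR log2 difference of Aldh18a1 was -1.09 ± 0.198 (adjusted p = 0.0732), that of Mthfd2 -0.72 (adjusted p = 0.356) and that of Mthfd1l -0.57 (adjusted p = 0.127).

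ACreb3l2/AXBP1 and ACreb3l2 differed little in these genes. The median log2 difference was -0.12 over the 10 members, the values ran from -0.23 for Aldh18a1 to 0.27 for Pycr1, and 4 of the 10 had both libraries lower in ACreb3l2/AXBP1, against 18.6% of all genes. By edgeR 0 of the 8 members tested were called, at 0% of all genes, and 0 had an unadjusted p under 0.05, against 1112 of all genes tested. DESeq2 and limma called none of the 8 either, against 0.231% and 0.0212% of all genes. The interaction, which asks whether both transgenes together changed a gene by other than the sum of their single log2 changes, was called for 0 of the 8 members and 0% of all genes by edgeR, with an adjusted p of 1.00 for each. Of the 8, 3 had an unadjusted p under 0.05, as did 386 of all genes tested, and DESeq2 and limma called none of the 8, against 0.0257% and 0.0159% of all genes. The largest interaction estimate was that of Aldh1l2, at 1.38 on the log2 scale, given here with no test. With 2 libraries a group, the exact permutation test of a single gene cannot give a p below 0.333.

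Of the members, 4 were set beside a sister enzyme in the other compartment or of the same activity, and the ratio of their FPKM within a library does not depend on the scaling of that library. The ratio of the mitochondrial Shmt2 to the cytosolic Shmt1 was 17.6 and 15.9 for WT, 8.03 and 7.90 for ACreb3l2, 9.75 and 6.21 for AXBP1, and 7.89 and 6.11 for ACreb3l2/AXBP1. The WT libraries were above all 6 others. ALDH1L1 is the cytosolic counterpart of ALDH1L2 and a known marker of glia. Aldh1l2 to Aldh1l1 was 0.894 and 0.822 for WT, 0.108 and 0.0843 for ACreb3l2, 0.320 and 0.311 for AXBP1, and 0.112 and 0.177 for ACreb3l2/AXBP1. Its 3 levels were those of Aldh1l2 itself, and Aldh1l1 had log2 changes of 0.06, -0.09 and -0.28 in the 3 transgenic groups, with no call.

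MTHFD2L has the same activity as MTHFD2 and is known from adult tissues. Mthfd2 to Mthfd2l was 1.41 and 2.41 for WT, 0.749 and 0.657 for ACreb3l2, 1.07 and 0.751 for AXBP1, and 0.604 and 0.602 for ACreb3l2/AXBP1. Mthfd2 was thus above its sister gene per length in WT and below it in every library with ACreb3l2. The ratio of Mthfd1l to the cytosolic Mthfd1 was 0.371 and 0.304 for WT, 0.238 and 0.205 for ACreb3l2, 0.307 and 0.307 for AXBP1, and 0.206 and 0.196 for ACreb3l2/AXBP1. Here AXBP1 lay within the WT range. Neither Mthfd2l nor Mthfd1 was called in any of these 3 comparisons, and their log2 changes ran from -0.10 to -0.01.

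**Figure D4:**
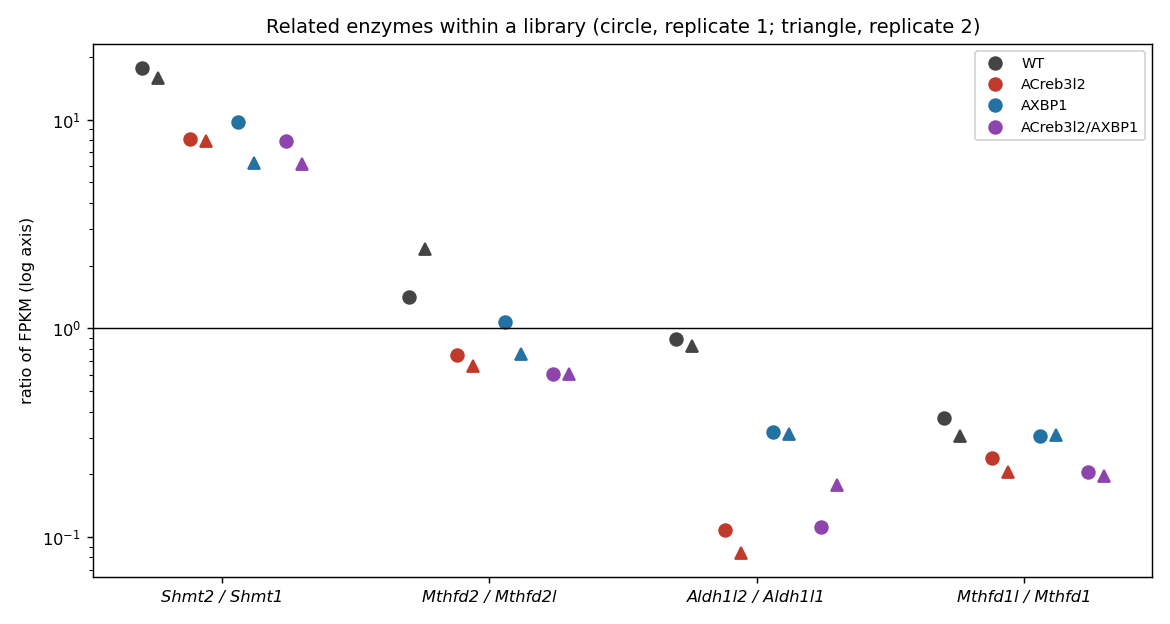
Ratio of FPKM between each of 4 members and its sister gene (log axis) in each of the 8 libraries, with a circle for replicate 1 and a triangle for replicate 2. The Shmt2 to Shmt1 ratio is above 15 in both WT libraries and below 10 in the 6 transgenic ones, and Aldh1l2 to Aldh1l1 shows 3 levels, with AXBP1 between WT and the groups with ACreb3l2.

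The rest of the pathway was followed in 6 lists with 52 genes, of which 51 were tested. In ACreb3l2 against WT 9 of the 51 were called, in AXBP1 0 and in ACreb3l2/AXBP1 17, all of them lower, where 3.04%, 0% and 10.1% of all genes were called. For the AXBP1 comparison 16 of the 51 had an unadjusted p under 0.05, DESeq2 called 6 and limma 3, against 1554, 73 and 14 of all the genes each tested. Without WT replicate 2, ACreb3l2 replicate 1 or ACreb3l2 replicate 2 the ACreb3l2 count was 4, with 158, 195 and 153 of all genes called against 473. Without WT replicate 2 or ACreb3l2/AXBP1 replicate 2 the ACreb3l2/AXBP1 count was 6, with 355 and 218 of all genes called against 1566.

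The list of ATF4 and its known targets held 7 of the 9 calls in ACreb3l2 and 8 of the 17 in ACreb3l2/AXBP1. All 10 genes of this list had a lower mean in each transgenic group. The medians of the list were -0.79 for ACreb3l2, -0.70 for AXBP1 and -0.85 for ACreb3l2/AXBP1. Atf4 had 7718 and 8423 normalized counts for WT, 4428 and 4074 for ACreb3l2, 4669 and 4598 for AXBP1, and 3461 and 2816 for ACreb3l2/AXBP1. The WT libraries were above all others and the ACreb3l2/AXBP1 libraries below all others. Atf4 fell in ACreb3l2 (log2 change -0.92, adjusted p = 0.00210) and ACreb3l2/AXBP1 (-1.36, adjusted p = 0.000364), with -0.80 in AXBP1 (adjusted p = 0.0769). Trib3, a pseudokinase induced by stress, had 385 and 476 normalized counts for WT, 128 and 152 for ACreb3l2, 143 and 157 for AXBP1, and 98.8 and 86.0 for ACreb3l2/AXBP1. Its single-transgene groups overlapped, and Trib3 fell in ACreb3l2 (-1.62, adjusted p = 0.00136) and ACreb3l2/AXBP1 (-2.22, adjusted p = 0.000364), with -1.52 in AXBP1 (adjusted p = 0.0769). Chac1, which breaks down glutathione, fell by 1.63 on the log2 scale in ACreb3l2 (adjusted p = 0.0164) and by 2.47 in ACreb3l2/AXBP1 (adjusted p = 0.00281), and had -1.48 in AXBP1 (adjusted p = 0.309). Asns, the asparagine synthetase, fell by 0.82 (adjusted p = 0.0172) and 1.14 (adjusted p = 0.00301) in the same groups, and had -0.91 in AXBP1 (adjusted p = 0.187). Ddit3 (the factor CHOP), Sesn2 and Cebpg were also called in both groups with ACreb3l2, with log2 changes of -0.76, -0.82 and -0.40 in ACreb3l2 and -0.83, -0.87 and -0.31 in ACreb3l2/AXBP1. In AXBP1, where edgeR called none of the list, DESeq2 called Asns, Atf4, Chac1, Ddit3, Sesn2 and Trib3, and 0.469% of all genes. Limma called Asns, Atf4 and Trib3 there, and 0.0741% of all genes. The Cebpg call was lost in 12 of 18 alternatives in each group, and that of Sesn2 in 11 in ACreb3l2, where its log2 change was -0.54 without WT replicate 2. Atf5 was called in ACreb3l2/AXBP1 (-0.64, adjusted p = 0.0132). Ddit3, Cebpg and Atf5 share exonic bases with neighbouring genes, which the counts may not separate.

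Of the genes next to the members in glycine and proline metabolism, Amt and Oat fell in both groups with ACreb3l2. Amt, the aminomethyltransferase of the mitochondrial glycine cleavage system, had 2268 and 2662 normalized counts for WT, 1332 and 1339 for ACreb3l2, 2185 and 2095 for AXBP1, and 1399 and 1356 for ACreb3l2/AXBP1. The 4 libraries with ACreb3l2 lay close together and below the other 4. Amt fell in ACreb3l2 (log2 change -0.88, adjusted p = 0.00132) and ACreb3l2/AXBP1 (-0.84, adjusted p = 0.00149) against WT. It was also lower than in AXBP1, in ACreb3l2 by -0.68 ± 0.0926 (adjusted p = 0.0103) and in ACreb3l2/AXBP1 by -0.64 ± 0.0924 (adjusted p = 0.0160), the single call among the 51 genes in each of these comparisons. The other 7 genes of the mitochondrial folate and glycine list were not called, and the medians of the list were -0.16, -0.08 and -0.10 for ACreb3l2, AXBP1 and ACreb3l2/AXBP1. Oat, the ornithine aminotransferase that shares the proline precursor, had 7365 and 8201 normalized counts for WT, 5374 and 5794 for ACreb3l2, 7167 and 6769 for AXBP1, and 5495 and 5454 for ACreb3l2/AXBP1. It fell in ACreb3l2 (-0.48, adjusted p = 0.0175, a call lost in 8 of 18 alternatives) and ACreb3l2/AXBP1 (-0.51, adjusted p = 0.00905). The medians over the 9 genes of the proline and ornithine list were -0.01, -0.05 and -0.17.

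Of 11 cytosolic folate genes tested, Fpgs (log2 change -0.74, adjusted p = 0.0160) and Gart (-0.47, adjusted p = 0.0256) fell in ACreb3l2/AXBP1, and edgeR called none in the single-transgene groups, while DESeq2 called Fpgs in ACreb3l2. FPGS adds the glutamate tail that holds folate in the cell, and GART works in purine synthesis. The medians of this list were -0.07, -0.09 and -0.21, and both genes share exonic bases with other genes. Among 7 genes of lower glycolysis, of which Gapdh and Pgk1 lead to 3-phosphoglycerate and the others act after it, Gapdh (-0.65, adjusted p = 0.0322), Pgk1 (-0.50, adjusted p = 0.0219), Eno2 (-0.60, adjusted p = 0.0457) and Ldha (-0.34, adjusted p = 0.0381) fell in ACreb3l2/AXBP1. Of 18 alternatives, 13 lost the call of Ldha, 8 that of Eno2, 8 that of Gapdh, 7 that of Gart, 4 that of Pgk1 and 3 that of Fpgs. The single-transgene groups gave no edgeR call among the glycolytic genes. Of the 6 genes of the methionine cycle and transsulfuration none was called by edgeR in any group against WT, and their medians were 0.03, -0.14 and -0.11.

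**Figure D5:**
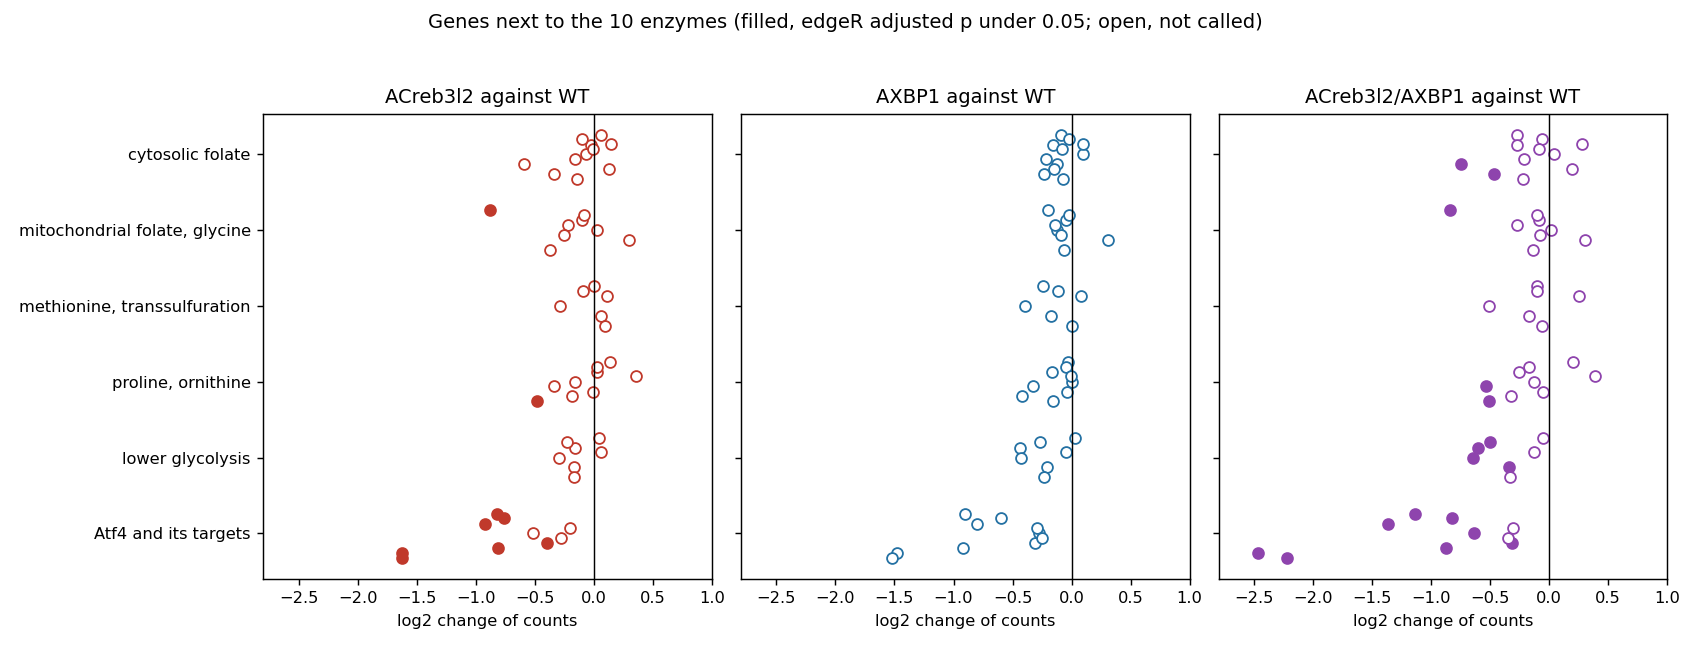
Log2 change from WT of each tested gene of the 6 neighbouring lists, 1 panel per transgenic group and a point per gene, filled where edgeR's adjusted p was under 0.05. The 10 genes of the ATF4 list all lie below 0, with medians of -0.79, -0.70 and -0.85, while the methionine list is centred near 0 with medians of 0.03, -0.14 and -0.11.

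As a description, genes were ordered by Pearson's r of log2 CPM with Aldh1l2 and with Pycr1 over the 8 libraries, which fall into groups, so that a high r is common. For Aldh1l2 the highest were Srp19 (r = 0.993), Jtb (0.992), Tmem41b (0.983), Deb1 (0.983) and Dnajc25 (0.982), and 82 genes had r above 0.95. Jtb had means of 1656 normalized counts in WT, 1191 for ACreb3l2, 1444 for AXBP1 and 1238 for ACreb3l2/AXBP1, so it shared the 3 levels over a much smaller range. For Pycr1 the highest were Arfgap1 (0.999), Golga2 (0.997), 2310039H08Rik (0.996), Tvp23b (0.996) and Sec31a (0.995), and 246 genes had r above 0.95. Sec31a, a coat protein of transport vesicles from the endoplasmic reticulum, had means of 11702 normalized counts in WT, 6483 for ACreb3l2, 10851 for AXBP1 and 6393 for ACreb3l2/AXBP1.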

How the data were processed

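RNA-seq libraries of 8 pools (4 groups, 2 each) were used. Per the methods section, the authors trimmed reads with Trimmomatic, aligned them to mm10 with Tophat, counted them per gene with HTSeq-count and tested them with DESeq. The deposited counts are raw. The deposited FPKM values were estimated by the authors, whose software list names cufflinks. The annotation release and the strand setting of the counting are not given in the sources used here. The labels state ribosomal depletion, whereas the methods text describes an mRNA kit, which would count RNAs without a poly(A) tail differently.

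Counts were fitted in edgeR 4.0.16 (R 4.3.3) with TMM scaling (factors 0.913 to 1.10) and the robust quasi-likelihood test, with all 8 libraries in 1 model and a mean per group, in place of the DESeq of the study. Genes with a mean count above 20, after division by median-ratio size factors, were tested (15580 genes, 99.9% of counts). The common biological coefficient of variation was 0.107. Alternatives used DESeq2 1.42.0, limma 3.58.1 on log2(FPKM + 0.1) or log2(FPKM + 1), median-ratio (RLE) or library-size scaling, no count filter or a minimum of 100, only the groups compared, a replicate block, and each library left out. The FPKM table lists 51 genes at more than 1 locus, which were summed. Gene positions are those of GENCODE M21 on mm10 and promoters those of RefSeq (GRCm38).

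Libraries with the same replicate number did not deviate together (correlations of deviations -0.197 to 0.0887), so numbers were not treated as pairs. The members and the gene lists were chosen with earlier results of these data known. All members are named, and of the neighbouring lists each gene called in any of the 7 comparisons, except 1 that is not reported here.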

Additional observations from a re-analysis of the deposited data

Results flagged for a closer look

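Amt, which encodes the aminomethyltransferase of the glycine cleavage system, differed between the transgenes by edgeR's test of the difference itself. Its log2 difference was -0.68 in ACreb3l2 against AXBP1 (adjusted p = 0.0103) and -0.64 in ACreb3l2/AXBP1 against AXBP1 (adjusted p = 0.0160), and both libraries of each group with ACreb3l2 lay below both AXBP1 libraries. Over the alternatives the adjusted p of Amt reached 0.216 in the first comparison, where the call was lost in 7, and 0.215 in the second, where it was lost in 6.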

How the results depend on the processing

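With 2 pools a group and 4 residual degrees of freedom, many calls near the threshold moved with the setting, and the causes were not tested. Among the 8 members tested, the count of calls in ACreb3l2 against WT (5) was 3 with limma on log2(FPKM + 0.1), 3 with a pseudocount of 1, 2 with no FPKM filter and 3 with only the groups compared, and 1 to 5 with a library left out. In AXBP1 against WT (0) it was 3 with DESeq2, 5 with no count filter and 1 with limma at either pseudocount, and 0 with any library left out. In ACreb3l2/AXBP1 against WT (6) it was 3 with limma and no FPKM filter, and 2 to 7 with a library left out. Between ACreb3l2 and AXBP1 (0) it was 1 with DESeq2, 2 with no count filter and 1 with only the groups compared, and 0 to 1 with a library left out. Between ACreb3l2/AXBP1 and AXBP1 (0) it was 3 with DESeq2, 1 with library size alone, 3 with no count filter and 1 with only the groups compared, and 0 to 1 with a library left out. The interaction gave 1 call, Mthfd2, with no count filter. Calls over all genes moved too. In ACreb3l2, AXBP1 and ACreb3l2/AXBP1 against WT they were 473, 0 and 1566 as reported, 751, 73 and 2038 with DESeq2, 1455, 628 and 3209 with no count filter (29547 genes), 199, 14 and 790 with limma on log2(FPKM + 0.1) (18895 genes), 139, 11 and 402 with no FPKM filter (27520 genes), and 275, 2 and 654 with only the groups compared. In ACreb3l2 and ACreb3l2/AXBP1 against AXBP1 they were 112 and 97 as reported, 258 and 283 with DESeq2, 730 and 755 with no count filter, and 145 and 122 with only the groups compared. Library size alone gave 55 in ACreb3l2/AXBP1 against AXBP1, and no count filter gave 126 in the interaction.

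Shmt2 against WT in ACreb3l2 and ACreb3l2/AXBP1, and Aldh18a1 in ACreb3l2/AXBP1, were called under all of the alternatives run. Mthfd1l in ACreb3l2 lost its call in 11 alternatives, Mthfd2 in 7 and Psat1 in 5.

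Among the 51 neighbouring genes, the count in ACreb3l2 against WT (9) was 5 with limma and no FPKM filter, and 4 to 9 with a library left out. In AXBP1 against WT (0) it was 6 with DESeq2, 8 with no count filter, 3, 3 and 1 with limma at the pseudocounts 0.1 and 1 and with no FPKM filter, 1 with the replicate block, and 0 to 3 with a library left out. In ACreb3l2/AXBP1 against WT (17) it was 11 with library size alone, 8 with limma and no FPKM filter and 10 with only the groups compared, and 6 to 17 with a library left out. Between ACreb3l2 and AXBP1 (1) it was 0 with each limma fit and 0 to 1 with a library left out, and between ACreb3l2/AXBP1 and AXBP1 (1) it was 4 with DESeq2, 6 with no count filter, 0 with each limma fit and 0 to 2 with a library left out. With no count filter 4 genes were called between ACreb3l2/AXBP1 and ACreb3l2 and 2 in the interaction. The replicate block gave 4, 0 and 6 calls among the 8 members, and 7, 1 and 15 among the 51 genes, in ACreb3l2, AXBP1 and ACreb3l2/AXBP1 against WT.

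Signs reversed in comparisons between transgenic groups where values lay near 0, none of them called. Leaving out 1 library gave the following ranges of log2 difference. In ACreb3l2 against AXBP1, Phgdh ran from -0.12 to 0.015, with 0.0025 without ACreb3l2 replicate 1, Shmt1 from -0.045 to 0.31 and Shmt2 from -0.10 to 0.040. In ACreb3l2/AXBP1 against AXBP1, Psph ran from -0.11 to 0.15. In ACreb3l2/AXBP1 against ACreb3l2, Shmt1 ran from -0.035 to 0.32, Aldh1l2 from -0.22 to 0.26 and Pycr1 from -0.14 to 0.60. With limma at the pseudocounts 0.1 and 1 and with no FPKM filter, Psat1 in ACreb3l2/AXBP1 against ACreb3l2 was -0.050, -0.048 and -0.050, Aldh1l2 there 0.20, 0.072 and 0.20, Shmt2 in ACreb3l2 against AXBP1 0.19, 0.17 and 0.19, and Shmt2 in ACreb3l2/AXBP1 against AXBP1 0.0058, 0.0051 and 0.0058. Aldh1l2 in ACreb3l2/AXBP1 against ACreb3l2 was 0.070 with library size alone and 0.0033 with the replicate block. On the FPKM scale the median log2 change of all genes was -0.15 in AXBP1 against WT, 0.18 in ACreb3l2 against AXBP1 and 0.12 in ACreb3l2/AXBP1 against AXBP1, and with library size alone it was 0.17 in ACreb3l2/AXBP1 against WT and 0.10 in ACreb3l2/AXBP1 against AXBP1, where the values as reported lay near 0. Shmt1 had too few reads for the minimum of 100.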
